A study of Mus musculus with 24 samples.

Results

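The comparison described here is the loss of both REV-ERB receptors in the DN population of the small intestine. It sets 3 DKO libraries against 3 WT libraries, chosen by their sample labels, which are 6 of the 24 libraries in the series. DKO mice carried Vav1-Cre, a Cre recombinase driven by the promoter of a gene used across blood cells, together with NR1D1/NR1D2 fl/fl alleles. WT mice were littermates with the fl/fl alleles, so both groups carried the floxed genes. All mice were 8 to 12 weeks old, with no treatment named. The cells were sorted from the lamina propria, the connective tissue under the gut epithelium, and 10 ng of total RNA per library was converted to cDNA with a low-input SMARTer kit and amplified in 12 to 15 PCR cycles. Labels name the other sorted populations ILC1, NKp46 and CCR6 and do not explain DN. The Cre is not specific to innate lymphoid cells, so other blood cells of the DKO mice can lack the receptors too. Nothing in the labels says whether a library holds 1 animal or a pool, so p-values measure the spread between libraries of a group.

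REV-ERBα and REV-ERBβ, encoded by Nr1d1 and Nr1d2, are nuclear receptors that sit on DNA elements shared with the ROR receptors and recruit the corepressor NCoR and the deacetylase HDAC3. They form an arm of the circadian clock. CLOCK and BMAL1 drive Nr1d1, Nr1d2, the Per and Cry repressors and the PAR bZIP output factors through E-boxes, and the REV-ERBs in turn repress Arntl (which encodes BMAL1), Npas2 and Nfil3. Group 3 innate lymphoid cells (ILC3) are tissue lymphocytes without rearranged antigen receptors that make interleukins 17 and 22.

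The DN libraries held 40714920 to 66678635 counts (DKO) and 37953497 to 46661738 counts (WT). Spearman correlation between libraries of a genotype was 0.950 to 0.961, and no pair agreed within sampling noise. Levels are counts per 1000000 (CPM) after scaling by trimmed means, not divided by gene length, and libraries are called DKO 1 to 3 and WT 1 to 3. On a principal component analysis of the DN libraries, the first component held 38.4% of the variance and separated the DKO from the WT libraries. One library outside the DN population, WT ILC1 2, stood apart with 12763228 counts and 11.1% ribosomal RNA, and it enters the shared estimate of spread.

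The markers agree in part with an ILC3 label and in part go against it, so the cells are called the DN population here. Among the ILC3 markers, Il22 averaged 1105 ± 238 CPM in DKO and 1192 ± 54.4 CPM in WT libraries (SD, n = 3 each), and Il23r and Kit were also read. Ncr1, the gene of NKp46, averaged 41.4 CPM in DKO and 55.5 CPM in WT DN libraries, against 464 and 824 CPM in DKO and WT NKp46 libraries. Ccr6 averaged 10.5 CPM in DKO and 40.7 CPM in WT DN libraries, against 766 and 1399.6 CPM in DKO and WT CCR6 libraries. All 21 markers of αβ and γδ T cells passed the filter on low counts, however. The CD3 chain gene Cd3e had 194, 148 and 201 CPM in the DKO libraries, against 591, 558 and 574 CPM in the WT libraries, and the γδ receptor constant region Trdc had 67.8, 71.2 and 89 CPM in the DKO libraries, against 242, 257 and 325 CPM in the WT libraries. Both lay above the averages of the 3 other populations in either genotype. Cd3e averaged 84.3, 25 and 33.1 CPM in DKO and 82.9, 12.9 and 76 CPM in WT CCR6, NKp46 and ILC1 libraries. The ILC3 list of 10 genes summed to 5998 to 6189 CPM in the DKO libraries and 7849 to 9153 CPM in the WT libraries. Il23r, Il7r and Id2 were among its members that fell, as described below. Id2, a gene that all ILCs need, made up most of the fall in this sum, and the median log2 fold change of the list was -0.16. The list of NKp46, ILC1 and NK cell genes summed to 472 to 541 CPM in the DKO libraries and 557 to 600.2 CPM in the WT libraries (1 rose and 1 fell of 8), and the LTi list to 269 to 302 CPM in the DKO libraries and 380.3 to 435 CPM in the WT libraries (0 of 6 called by edgeR).

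Several T cell transcripts fell in the DKO libraries, and this stands beside every immune result below. In these bulk libraries, fewer cells of a type and less RNA per cell cannot be told apart. Of the 21 T cell markers, 9 fell (Cd3e, Cd3d, Cd3g, Cd247, Trac, Trbc1, Trbc2, Trdc and Lck) and 1 rose (Lat), where 1.34% of all tested genes fell and 1.49% rose. Their median log2 fold change was -0.98, against -0.04 over all tested genes. The summed level of the list was 5215 to 5541 CPM in the DKO libraries and 5987 to 6418 CPM in the WT libraries. This sum includes Lat, whose rise offset part of the fall of the other members. Lat, a scaffold of receptor signalling and the member that ran the other way, had 1579, 1941 and 1486 CPM in the DKO libraries, against 411, 423 and 538 CPM in the WT libraries. Trav segments summed to 16.3 to 26.3 CPM in the DKO libraries and 36.6 to 59.5 CPM in the WT libraries, and Trbv segments to 26.6 to 52.4 CPM in the DKO libraries and 99.6 to 119.9 CPM in the WT libraries. Trgv segments summed to 59.6 to 69.1 CPM in the DKO libraries and 108 to 133 CPM in the WT libraries, and Trdv segments to 11.9 to 16.7 CPM in the DKO libraries and 69.5 to 94.3 CPM in the WT libraries. No DKO library reached a WT library in any of the 4 sums. Of all tested genes, 12.8% likewise had every DKO library below every WT library. Of the single segments tested, 0 of 46 Trav, 0 of 19 Trbv and 0 of 7 Trgv were called, and 2 of 5 Trdv fell. Trdv4 held most of the Trdv sum in each library, so that sum and Trdv4 are not separate results. Trdv4, named after its values were seen, had 13.3, 8.76 and 12.7 CPM in DKO, against 60.5, 63.8 and 86.3 CPM in WT (log2 fold change -2.60 ± 0.35 (SE), adjusted p = 6.33e-05). The γδ T cell scavenger receptor gene Cd163l1 (-2.03 ± 0.45, adjusted p = 0.011) and its relative 5830411N06Rik (-2.29 ± 0.40, adjusted p = 0.00104), chosen in the same way, also fell. Trbc1 and Trbc2 are near-identical, so the split of reads between them is uncertain. Cd3d lost the call without DKO 1, DKO 2, DKO 3, WT 2 or WT 3 (adjusted p up to 0.109). Lck and Trbc2 lost the call without any 1 of the 6 DN libraries (adjusted p up to 0.187). Cd163l1 lost the call without DKO 1, DKO 2 or WT 3 (adjusted p up to 0.0797). The part of T cell transcripts in the results below was not tested.

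Other cell types left traces with smaller sums than the T cell list. The ILC2 list, led by Gata3, summed to 696 to 1046 CPM in the DKO libraries and 1346 to 1955 CPM in the WT libraries. Of its 11 members only Gata3 was called, 0 had a positive log2 fold change and 5 had an unadjusted p under 0.05 in edgeR. Their median was -1.15, against -0.98 for the T cell markers. Averages of this sum in CCR6, NKp46 and ILC1 libraries of either genotype were 421 to 526 CPM. The part of ILC2 transcripts in the results was not tested. The stromal and endothelial list summed to 294 to 369 CPM in the DKO libraries and 161 to 185 CPM in the WT libraries, with Pdgfrb the called member of 13. The epithelial list summed to 40.6 to 90.1 CPM in the DKO libraries and 8.63 to 22.6 CPM in the WT libraries, with Krt18 called of 14 tested members and Epcam near 0 (0.483 CPM in DKO and 0.693 CPM in WT). One member of the B and plasma cell list, Cd79b, fell. Sums over that list (594 to 1164 CPM in the DKO libraries and 624 to 700.3 CPM in the WT libraries) and the myeloid list (33.9 to 44.2 CPM in the DKO libraries and 35.3 to 57.2 CPM in the WT libraries) overlapped between genotypes. Sums over the variable segments of the immunoglobulin heavy and kappa chains were higher in every DKO library than in any WT library, however, and those of the lambda chain overlapped. Of all tested genes, 11.2% likewise had every DKO library above every WT library. Of the single segments tested, 0 of 30 Ighv, 0 of 34 Igkv and 0 of 3 Iglv were called. Ighv segments summed to 13.1, 27.7 and 78 CPM in the DKO libraries, against 3.43, 10.3 and 11.6 CPM in the WT libraries, and Igkv segments summed to 28.1, 114 and 171 CPM in the DKO libraries, against 12.8, 24.6 and 23.9 CPM in the WT libraries. Their part in the results was not tested. Siglech, of the myeloid list, had 0 counts in every DN library. Gata3 lost the call without DKO 2, DKO 3, WT 1 or WT 2 (adjusted p up to 0.193). Pdgfrb lost the call without any 1 of the 6 DN libraries (adjusted p up to 0.15).

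Counts of 602 genes differed between DKO and WT in the DN population at an adjusted p under 0.05, of 21286 tested (2.83%). Adjusted p-values were taken from quasi-likelihood F tests in edgeR and corrected by Benjamini and Hochberg's method across the whole table, and a gene that passed is named called. Among them 317 rose (1.49%) and 285 fell (1.34%). By size, 76 genes rose by more than 3 on the log2 scale and 31 fell by more than 3. Median log2 fold change was 1.48 among genes that rose and -1.19 among genes that fell. In 315 of the 317 and 284 of the 285, no DKO library overlapped a WT library, against 11.2% of tested genes with all DKO libraries above and 12.8% with all below. Without WT ILC1 2 the count was 918 (501 higher, 417 lower), and without 1 DN library at a time it was 357 (without DKO 2) to 416 (without WT 1). Of the 157 called genes taken by the naming rules, 99 stayed called without each DN library, and the rest are marked where they are named.

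**Figure D1:**
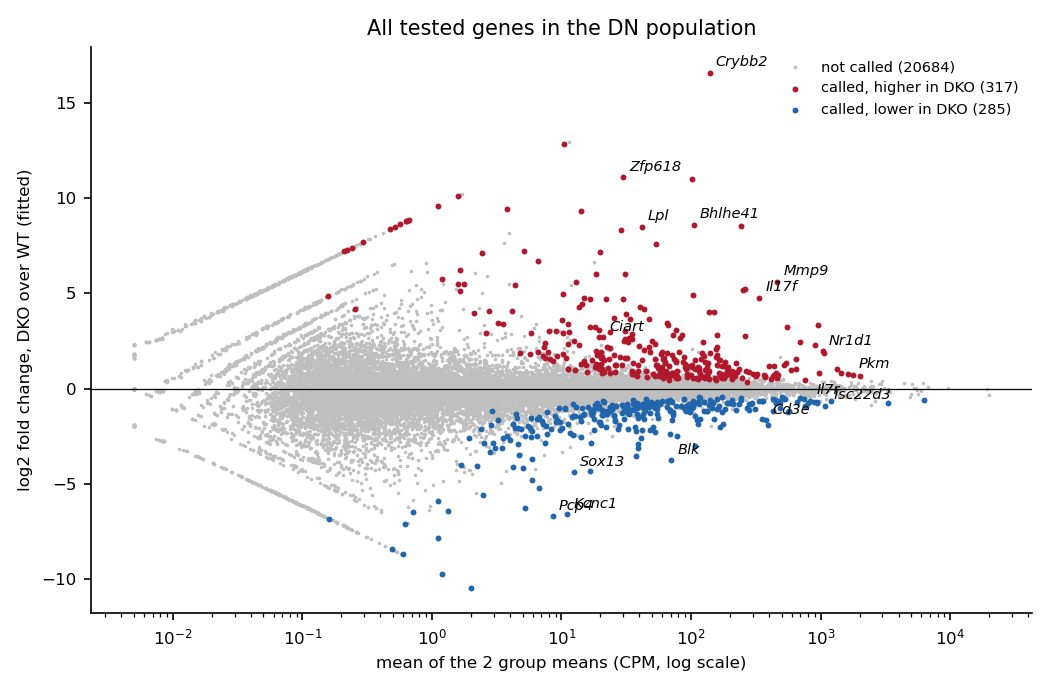
Fitted log2 fold change of DKO over WT (vertical) against the mean of the 2 group means in CPM (horizontal, log scale) for the 21286 tested genes. Red points are the 317 genes that rose and blue points the 285 that fell; the grey rays at low CPM are genes with 0 or a few counts in a group, whose fitted values depend on the prior count, and Crybb2 at the top has 0 WT counts.

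The deleted genes were read first. Nr1d1 (ENSMUSG00000020889, chr11:98767932-98775333, minus strand) had 1485, 1772 and 1705 CPM in the DKO libraries, against 386, 399 and 489 CPM in the WT libraries (log2 fold change 1.96 ± 0.21 (SE), adjusted p = 2.44e-06). Nr1d2 (ENSMUSG00000021775, chr14:18204054-18239127, minus strand) had 121, 83.5 and 68.7 CPM in the DKO libraries, against 44.4, 27 and 22 CPM in the WT libraries (log2 fold change 1.54 ± 0.37 (SE), adjusted p = 0.0175). Counts over both genes were thus higher in the mice labelled DKO, with no overlap. The Cre removes floxed exons and leaves the rest of the gene, and which exons were floxed is not given in the sources used here, so a count per whole gene does not check the deletion, and DKO is used as the name the labels give. Thra, the thyroid hormone receptor gene that runs antisense to Nr1d1 and shares 263 exon bases with it, rose too (log2 fold change 1.67 ± 0.25 (SE), adjusted p = 1.59e-04). The strand setting of the counting is not given, so reads in the shared bases cannot be assigned. Vav1, whose promoter drives the Cre, had 225, 243 and 217 CPM in the DKO libraries, against 238, 240.2 and 225 CPM in the WT libraries (log2 fold change -0.04 ± 0.14 (SE), adjusted p = 0.972). Nr1d2 lost the call without DKO 1, WT 2 or WT 3 (adjusted p up to 0.12).

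Of 8 clock repressors tested, 4 rose in the DN population (Bhlhe41, Ciart, Per3 and Cry1) and none fell. Bhlhe41 encodes DEC2, a bHLH repressor of CLOCK and BMAL1. Its gene (ENSMUSG00000030256, chr6:145858243-145865558, minus strand) had 219.9, 200.3 and 209 CPM in the DKO libraries, against 0.467, 0.76 and 0.387 CPM in the WT libraries (log2 fold change 8.60 ± 0.58 (SE), adjusted p = 3.28e-09). WT libraries were close to 0 and DKO libraries were alike. Ciart, also named CHRONO, a repressor of BMAL1, had 26.4, 42.1 and 40.5 CPM in DKO, against 6.01, 5.62 and 5.21 CPM in WT (log2 fold change 2.69 ± 0.27 (SE), adjusted p = 8.55e-07). Per3 had 52.4, 55.4 and 57.8 CPM in DKO, against 8.39, 5.69 and 6.5 CPM in WT (log2 fold change 3.01 ± 0.30 (SE), adjusted p = 9.59e-07), and Cry1 had 23.3, 19.2 and 23.4 CPM in DKO, against 10.3, 10 and 7.33 CPM in WT (log2 fold change 1.25 ± 0.26 (SE), adjusted p = 0.0065). PER and CRY proteins form the complex that shuts off CLOCK and BMAL1. Per2 had 25, 17.6 and 14.8 CPM in DKO, against 4.81, 3.46 and 0.542 CPM in WT and did not pass the test (log2 fold change 2.70 ± 0.75 (SE), adjusted p = 0.0567); WT 3 was the lowest of its group. DESeq2 and limma voom each called 5 of the 8. Cry2 (1.10 ± 0.42, adjusted p = 0.225) was not called. Per1 and Bhlhe40, which encodes DEC1, a relative of DEC2, had log2 fold changes near 0 (-0.07 ± 0.19, adjusted p = 0.965 and -0.01 ± 0.19, adjusted p = 0.998). Cry1 lost the call without WT 3 (adjusted p = 0.0528).

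The promoters of these repressors are shown because 3 of them hold E-boxes, the element of CLOCK and BMAL1, and the fourth holds the element of the PAR bZIP factors. They were thus picked for being called and for holding a motif, and do not stand for the clock lists as a whole. Each run is the 250 bases before the RefSeq start (GRCm38.p6), written 5′ to 3′ on the gene's strand, with an E-box (CACGTG) or a D-box (TTATGTAA or TTACGTAA, both strands) in capitals. The regions are chr3:95882229-95882478, chr6:145865421-145865670, chr10:85185055-85185304 and chr4:151044666-151044915, all on the minus strand.
Ciart: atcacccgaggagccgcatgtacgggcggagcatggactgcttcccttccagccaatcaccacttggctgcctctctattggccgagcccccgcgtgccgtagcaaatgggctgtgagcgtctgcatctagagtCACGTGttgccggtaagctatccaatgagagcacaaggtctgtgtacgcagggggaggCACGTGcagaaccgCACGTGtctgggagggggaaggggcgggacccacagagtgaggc
Bhlhe41: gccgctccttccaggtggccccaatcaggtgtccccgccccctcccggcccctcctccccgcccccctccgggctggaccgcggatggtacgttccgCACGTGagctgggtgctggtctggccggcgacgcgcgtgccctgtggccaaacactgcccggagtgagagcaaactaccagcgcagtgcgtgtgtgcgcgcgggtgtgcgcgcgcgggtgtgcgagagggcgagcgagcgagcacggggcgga
Cry1: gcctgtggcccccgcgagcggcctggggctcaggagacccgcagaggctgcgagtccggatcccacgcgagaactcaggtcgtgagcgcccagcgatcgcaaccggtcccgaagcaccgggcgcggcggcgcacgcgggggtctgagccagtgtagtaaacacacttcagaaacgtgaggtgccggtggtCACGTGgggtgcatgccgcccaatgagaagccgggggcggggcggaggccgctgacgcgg
Per3: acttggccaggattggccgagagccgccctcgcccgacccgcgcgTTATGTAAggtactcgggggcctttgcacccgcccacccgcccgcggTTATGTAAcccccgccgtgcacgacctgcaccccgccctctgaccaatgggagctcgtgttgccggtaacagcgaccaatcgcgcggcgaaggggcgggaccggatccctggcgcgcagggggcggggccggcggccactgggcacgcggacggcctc
Ciart had E-boxes starting 116, 58 and 44 bases before its start, Bhlhe41 had 1 at 153 bases, and Cry1 had 1 at 60 bases. Per3 had D-boxes at 205 and 158 bases and no E-box. Other clock genes did not follow this pattern alike. Tef, which rose, had an E-box at 127 bases before a start and at 138 bases before another. Per1, which was not called, had an E-box at 166 bases before a start and none before another. Dbp, Hlf, Npas2, Nfil3, Nr1d1 and Nr1d2, which all rose, had no E-box and no D-box in the same stretch. A link between E-boxes and the rises was not tested.

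Over windows of 250 bases before to 50 after a start, an E-box stood in 43 of the 245 genes that rose and had a promoter in the table (17.6%). It stood in 19 of the 208 genes that fell (9.13%), in 11.0% of 12079 tested genes and in 8.09% of all 27025 genes. D-boxes stood in 2.04% of genes that rose, 0.481% of genes that fell and 0.936% of tested genes. The ROR response element (AANT followed directly by AGGTCA or GGGTCA, both strands), on which REV-ERBs are known to act, stood in 0.816% of genes that rose, 1.44% of genes that fell and 0.381% of tested genes, which are 2, 3 and 46 genes. Promoters were found for 245 of 317 and 208 of 285 called genes. These are counts of letters, with no test, and a window this short leaves distant elements unread.

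Among clock activators Npas2 rose. Npas2, which encodes a paralogue of CLOCK, had 58.3, 66.9 and 60.5 CPM in DKO, against 8.72, 9.32 and 7.22 CPM in WT (log2 fold change 2.88 ± 0.48 (SE), adjusted p = 7.00e-04). Arntl had 61.1, 78.8 and 76.3 CPM in DKO, against 39.6, 43.1 and 37.1 CPM in WT, with the groups apart but the test not passed (log2 fold change 0.85 ± 0.28 (SE), adjusted p = 0.127), and Clock (0.43 ± 0.28, adjusted p = 0.629) and Rora (0.15 ± 0.10, adjusted p = 0.646) were not called either. Arntl2 did not pass the filter on low counts. The output factors rose together: all 4 of the PAR bZIP factors and Nfil3. Dbp had 77.3, 97.7 and 88.7 CPM in DKO, against 7.85, 4.81 and 7.95 CPM in WT (log2 fold change 3.68 ± 0.43 (SE), adjusted p = 9.12e-06). Hlf had 133, 131 and 163 CPM in DKO, against 23.6, 23.8 and 19.9 CPM in WT (log2 fold change 2.67 ± 0.34 (SE), adjusted p = 3.10e-05). Tef, the third PAR bZIP activator, had 54.4, 53.3 and 56 CPM in DKO, against 11.4, 9 and 10.1 CPM in WT (log2 fold change 2.42 ± 0.38 (SE), adjusted p = 3.34e-04). Nfil3, a bZIP repressor that binds the same D-boxes and that ILC development needs, had 157, 156 and 154 CPM in DKO, against 66.7, 67.3 and 79 CPM in WT (log2 fold change 1.13 ± 0.22 (SE), adjusted p = 0.00333). None of the 6 clock kinases and ubiquitin ligases and none of the 6 corepressor genes, Ncor1 and Hdac3 among them, was called by edgeR, DESeq2 or limma voom (0 and 1 at an unadjusted p under 0.05).

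**Figure D2:**
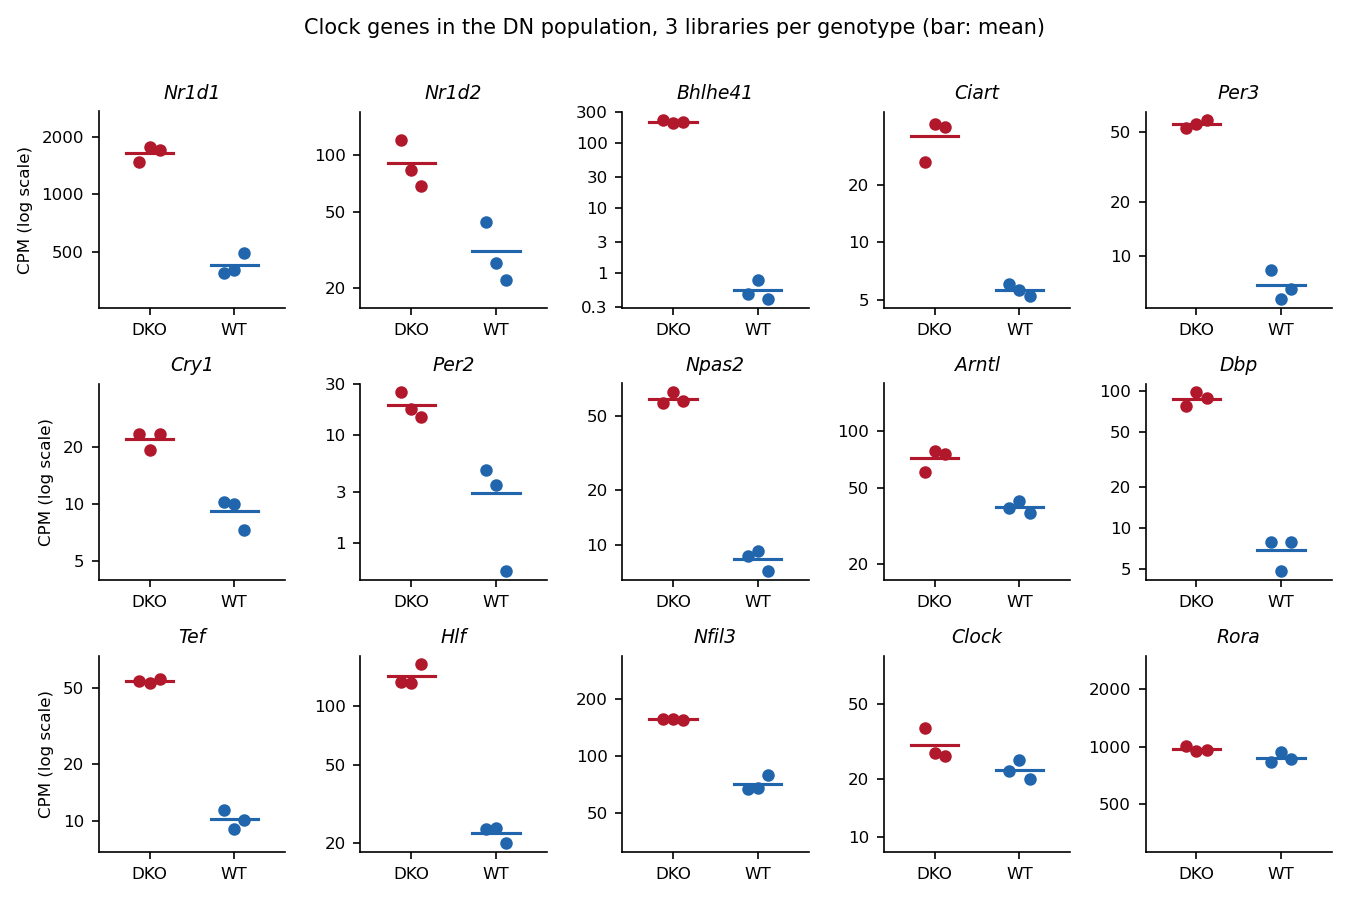
CPM (log scale, one axis per gene) of 15 clock genes in the 3 DKO and 3 WT libraries of the DN population; points are libraries and bars are group means. DKO libraries sit above all WT libraries for Nr1d1, Nr1d2, Bhlhe41, Ciart, Per3, Cry1, Npas2, Dbp, Tef, Hlf and Nfil3 and lie close above them for Clock and Rora, neither of which was called, while Per2 and Arntl are separated without passing the test.

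The largest rises began near 0 in WT. Crybb2, which encodes a β-crystallin, had 254, 321 and 259 CPM in DKO, against 0, 0 and 0 CPM in WT, at least 11382-fold higher against a floor of 3 counts over the WT group. Plekhs1 had 24.3, 24.7 and 13.5 CPM in DKO, against 0, 0 and 0 CPM in WT, at least 816-fold higher on the same floor. Both had 0 counts in each WT library. The zinc finger gene Zfp618 had 66.1, 62.2 and 50.7 CPM in DKO, against 0, 0 and 0.0774 CPM in WT, a ratio of 2419 with a 95% counting interval of 827 to 11731 from 3 WT counts. Lrrc6, needed for assembly of ciliary dynein, had 7.98, 8.58 and 6.28 CPM in DKO, against 0, 0.0245 and 0 CPM in WT, a ratio of 920.1 (165 to 36374) from 1 WT count. These intervals and floors cover counting error alone. Ak7, an adenylate kinase of cilia, rose as well (5.99 ± 0.56, adjusted p = 3.98e-07).

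Other large rises included genes of secreted and matrix proteins. Timp3, an inhibitor of metalloproteinases, had 190.5, 239 and 184 CPM in DKO, against 0.0445, 0.0491 and 0.206 CPM in WT (log2 fold change 11.00 ± 1.38 (SE), adjusted p = 3.80e-05). Spon2, a matrix protein, had 527, 529 and 395 CPM in DKO, against 1.42, 1.77 and 0.671 CPM in WT (log2 fold change 8.54 ± 1.10 (SE), adjusted p = 5.43e-05). Mmp9, the gelatinase that cuts type IV collagen, had 978, 941 and 790.0 CPM in DKO, against 21, 16.5 and 17.8 CPM in WT (log2 fold change 5.62 ± 0.22 (SE), adjusted p = 5.40e-13). Each was near 0 or low in every WT library. Angptl2, a secreted angiopoietin-like protein (7.60 ± 1.13, adjusted p = 2.59e-04), and Wnt3, a WNT ligand (8.34 ± 0.98, adjusted p = 9.62e-06), had means of 107 and 57.4 CPM in DKO, against 0.556 and 0.171 CPM in WT. Genes of signalling rose on the same scale: Pik3r6, a regulatory subunit of PI3Kγ (9.34 ± 1.14), Rgl1, an effector of RAS (6.01 ± 0.61), and Cdcp1, a surface glycoprotein (6.71 ± 1.24). Their adjusted p-values ran from 1.30e-06 to 0.00201. C5ar1, the receptor of complement C5a, had 9.21, 14.3 and 7.03 CPM in DKO, against 0, 0.196 and 0 CPM in WT (log2 fold change 7.24 ± 0.98 (SE), adjusted p = 6.33e-05); without WT 2, the WT library that held its reads, the fitted value was 11.80. Lpl is given with lipid metabolism.

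By smallest adjusted p, the rises were led by Mmp9, Srgap3 and Acat1. Srgap3, a RAC GTPase-activating protein, had 493, 531 and 439 CPM in DKO, against 12, 14.8 and 13.2 CPM in WT (log2 fold change 5.19 ± 0.22 (SE), adjusted p = 1.27e-12). Acat1, a mitochondrial thiolase that joins or splits acetoacetyl-CoA, had 1143, 1257 and 1142 CPM in DKO, against 202, 219 and 232 CPM in WT (log2 fold change 2.44 ± 0.12 (SE), adjusted p = 8.42e-12). Furin and Lat were among the largest rises by difference in mean CPM. Furin, a protease that activates precursors, among them TGF-β, had 1632, 1604 and 1293 CPM in DKO, against 325, 339 and 268 CPM in WT (log2 fold change 2.28 ± 0.19 (SE), adjusted p = 6.41e-08). Sdc4, a heparan sulfate proteoglycan of the surface, had 2614, 2646 and 2134 CPM in DKO, against 1607, 1598 and 1487 CPM in WT (log2 fold change 0.66 ± 0.13 (SE), adjusted p = 0.00406).

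The largest falls were in genes of low to moderate level in WT. Pcp4, a modulator of calmodulin, had 0.22, 0.294 and 0 CPM in DKO, against 18, 14 and 18.7 CPM in WT (log2 fold change -6.67 ± 1.21 (SE), adjusted p = 0.00183). Kcnc1, a voltage-gated potassium channel, had 0.286, 0 and 0.356 CPM in DKO, against 22.7, 20.3 and 22.9 CPM in WT (log2 fold change -6.59 ± 1.10 (SE), adjusted p = 7.67e-04). Kcnip3, which encodes a calcium-binding partner of potassium channels, fell too (-4.81 ± 0.90, adjusted p = 0.00248), as did Smyd1, a muscle methyltransferase (-6.26 ± 1.11, adjusted p = 0.00147), and Gdpd1, a lysophospholipase D (-5.20 ± 0.76, adjusted p = 1.50e-04). Every DKO library was under 1 CPM for these genes. Rnase6, an antimicrobial ribonuclease, had 1.61, 1.23 and 1.88 CPM in DKO, against 31.5, 27.6 and 35.1 CPM in WT (log2 fold change -4.31 ± 0.71 (SE), adjusted p = 6.81e-04). Mrc2, an endocytic collagen receptor (-3.68 ± 0.71, adjusted p = 0.00307), and Eps8l3, a relative of the actin regulator EPS8 (-3.55 ± 0.54, adjusted p = 2.57e-04), fell next. Adm, which encodes adrenomedullin, Grb10, Fam167a, Dsg2 and Khdrbs3 had log2 fold changes of -4.16, -4.12, -3.49, -3.34 and -3.13. Adm lost the call without DKO 2, DKO 3 or WT 1 (adjusted p up to 0.113). Grb10 lost the call without DKO 2, DKO 3 or WT 2 (adjusted p up to 0.105). Fam167a lost the call without DKO 1, DKO 2, DKO 3 or WT 1 (adjusted p up to 0.112). Dsg2 lost the call without DKO 1, DKO 2, DKO 3, WT 1 or WT 3 (adjusted p up to 0.138). Khdrbs3 lost the call without any 1 of the 6 DN libraries (adjusted p up to 0.192).

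Blk and Sox13 were among the largest falls and are genes of γδ T cells as well as of other lymphocytes. Blk, a SRC-family kinase, had 11.9, 8.76 and 8.38 CPM in DKO, against 117, 115 and 160.5 CPM in WT (log2 fold change -3.75 ± 0.68 (SE), adjusted p = 0.00239). Sox13, a factor of γδ T cells that make IL-17, had 1.45, 0.589 and 1.34 CPM in DKO, against 24.6, 19.8 and 26.8 CPM in WT (log2 fold change -4.39 ± 1.00 (SE), adjusted p = 0.0131). In the CCR6 and NKp46 populations the fitted values of Sox13 were -0.97 and -0.05. Sox13 lost the call without DKO 1, DKO 2, DKO 3 or WT 3 (adjusted p up to 0.112).

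By adjusted p, the falls were led by Ccdc184, with 17.5, 23.8 and 29.8 CPM in DKO, against 174, 203 and 197 CPM in WT (log2 fold change -3.01 ± 0.21 (SE), adjusted p = 3.99e-09). Gstm5, a glutathione transferase whose family holds near-identical copies, had 16.6, 16.1 and 13.8 CPM in DKO, against 70.8, 61.8 and 73.8 CPM in WT (log2 fold change -2.15 ± 0.19 (SE), adjusted p = 2.22e-07). Ncoa7, an oxidation resistance gene, had 187, 154 and 158 CPM in DKO, against 592, 618 and 642 CPM in WT (log2 fold change -1.89 ± 0.18 (SE), adjusted p = 3.69e-07). St3gal6, which adds sialic acid to glycans (-1.84 ± 0.19, adjusted p = 1.65e-06), and Jaml, a junctional adhesion molecule of lymphocytes (-1.22 ± 0.14, adjusted p = 1.17e-05), followed. Zmat4, Rab4a and Gmfg fell by 2.44, 1.93 and 1.19 on the log2 scale. By difference in mean CPM, Tmsb4x and Tmsb10, the actin-binding thymosins, led, with log2 fold changes of -0.59 and -0.70. Gpx1, a selenium-dependent peroxidase, had 496, 575 and 517 CPM in DKO, against 911, 971 and 1074 CPM in WT (log2 fold change -0.90 ± 0.15 (SE), adjusted p = 8.25e-04). Tsc22d3, the glucocorticoid-induced gene GILZ, had 773, 639.9 and 879 CPM in DKO, against 1199, 1376 and 1661 CPM in WT (log2 fold change -0.89 ± 0.20 (SE), adjusted p = 0.0131), and Gm2a and Sla fell less (-0.66 and -0.75). Tmsb4x and Gm2a lost the call without DKO 2, DKO 3, WT 1 or WT 2 (adjusted p up to 0.105). Tsc22d3 lost the call without DKO 1, DKO 2, WT 2 or WT 3 (adjusted p up to 0.145). Sla lost the call without DKO 2, DKO 3 or WT 3 (adjusted p up to 0.0898).

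Among the interleukin 17 and 22 genes, 1 of 3 tested rose. Il17f, which encodes a cytokine of mucosal defence (ENSMUSG00000041872, chr1:20777146-20790617, minus strand), had 661, 858 and 430.5 CPM in the DKO libraries, against 35.2, 14.1 and 21.8 CPM in the WT libraries (log2 fold change 4.78 ± 0.60 (SE), adjusted p = 2.69e-05). Its neighbour Il17a had 22.5, 26.1 and 20.1 CPM in DKO, against 10.7, 6.77 and 12.6 CPM in WT, with the groups apart but the test not passed (log2 fold change 1.19 ± 0.63 (SE), adjusted p = 0.482). Il22, the interleukin that acts on epithelium, had 1007, 1376 and 931 CPM in DKO, against 1143, 1251 and 1183 CPM in WT, with overlap (log2 fold change -0.11 ± 0.41 (SE), adjusted p = 0.974). Il17c, Il17d and Il25 did not pass the filter on low counts. Of 13 TNF family ligands, Tnf rose: it had 212, 239 and 198 CPM in DKO, against 136, 118 and 125 CPM in WT (log2 fold change 0.78 ± 0.18 (SE), adjusted p = 0.0124). Lta (0.46 ± 0.15, adjusted p = 0.124) was not called. None of 15 other lymphocyte cytokines was called by edgeR (3 at an unadjusted p under 0.05). DESeq2 called 0 of them and limma voom 2. Tnf lost the call without DKO 2, WT 2 or WT 3 (adjusted p up to 0.0917).

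Among cytokine receptors 4 fell and 1 rose. Of 13 receptors for IL-1 family cytokines, IL-12 and IL-23, 1 fell, Il23r, the specific chain of the IL-23 receptor, with 102, 108 and 87.1 CPM in DKO, against 175, 166 and 219 CPM in WT (log2 fold change -0.91 ± 0.19 (SE), adjusted p = 0.00731). Il1r1 had 219, 204 and 183 CPM in DKO, against 139, 141 and 129 CPM in WT, apart but not called (log2 fold change 0.57 ± 0.31 (SE), adjusted p = 0.498). Of 21 common gamma chain and other receptors, 3 fell and 1 rose. Il7r, the receptor of the survival factor IL-7, had 700.1, 602 and 665 CPM in DKO, against 891, 1112 and 1027 CPM in WT (log2 fold change -0.62 ± 0.15 (SE), adjusted p = 0.0195). Il27ra (-1.11 ± 0.20, adjusted p = 0.00148) and Il2rb (-0.70 ± 0.17, adjusted p = 0.0247) fell, and Tgfbr1, a chain of the TGF-β receptor, rose (0.87 ± 0.24, adjusted p = 0.0473). Downstream, Stat5b rose (0.80 ± 0.17, adjusted p = 0.00947) and Socs2, an inhibitor of cytokine signalling, fell (-0.72 ± 0.17, adjusted p = 0.0161), of 16 JAK-STAT and SOCS genes. Il23r lost the call without DKO 3 or WT 3 (adjusted p up to 0.0669). Il7r lost the call without DKO 1, DKO 2, DKO 3, WT 2 or WT 3 (adjusted p up to 0.158). Il2rb and Tgfbr1 lost the call without any 1 of the 6 DN libraries (adjusted p up to 0.247). Stat5b lost the call without DKO 1 or WT 3 (adjusted p up to 0.0903). Socs2 lost the call without DKO 1, DKO 2, WT 2 or WT 3 (adjusted p up to 0.126). Of the receptors named as called, only Il27ra kept its call without each DN library.

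Lineage transcription factors changed in 8 of 29 cases, with 2 higher and 6 lower (median log2 fold change -0.19). Tox had 371, 341 and 345 CPM in DKO, against 182, 191 and 177 CPM in WT (log2 fold change 0.94 ± 0.13 (SE), adjusted p = 5.43e-05), and Tcf7, which encodes TCF-1, had 499, 528 and 600.2 CPM in DKO, against 358, 337 and 315 CPM in WT (log2 fold change 0.69 ± 0.12 (SE), adjusted p = 7.46e-04). Both act early in ILC development, and in both all DKO libraries were above all WT libraries. Id2, the inhibitor of E proteins that all ILCs need, had 2470.3, 2255 and 2588 CPM in DKO, against 3659.9, 4197 and 4647 CPM in WT (log2 fold change -0.77 ± 0.14 (SE), adjusted p = 0.00156). Gata3, used by ILC2, T cells and, at lower levels, ILC3, had 798, 556 and 710.1 CPM in DKO, against 1163, 1213 and 928 CPM in WT (log2 fold change -0.68 ± 0.16 (SE), adjusted p = 0.0162). Prdm1 (-1.35 ± 0.30, adjusted p = 0.00969) and Sox13 (above) fell, as did Ahr (-1.09 ± 0.26, adjusted p = 0.0203), the ligand-activated receptor that gut ILC3 need, and Batf (-0.89 ± 0.21, adjusted p = 0.0201), both named after their values were seen. Bcl11b, a T cell and ILC2 factor, was not called (-0.98 ± 0.28, adjusted p = 0.0633). The summed ILC2 and T cell marker levels above were lower in DKO too. Gata3 lost the call without DKO 2, DKO 3, WT 1 or WT 2 (adjusted p up to 0.193). Prdm1 lost the call without DKO 2 or DKO 3 (adjusted p up to 0.0974). Sox13 lost the call without DKO 1, DKO 2, DKO 3 or WT 3 (adjusted p up to 0.112). Ahr lost the call without DKO 1, DKO 2, DKO 3, WT 1 or WT 2 (adjusted p up to 0.103). Batf lost the call without DKO 1, DKO 2, DKO 3, WT 1 or WT 3 (adjusted p up to 0.15).

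Among chemokine genes 3 ligands rose and 2 receptors fell. Of 10 tested ligands, 3 rose, all of them neutrophil attractants. Cxcl3 had 162, 259.7 and 185 CPM in DKO, against 2.91, 6.67 and 10.8 CPM in WT (log2 fold change 4.90 ± 0.43 (SE), adjusted p = 1.63e-07). Cxcl1 had 76.2, 103 and 52.5 CPM in DKO, against 6.67, 2.99 and 2.06 CPM in WT (log2 fold change 4.30 ± 0.96 (SE), adjusted p = 0.0113), and Cxcl2 had 157, 278 and 152 CPM in DKO, against 63.6, 80.7 and 85.1 CPM in WT (log2 fold change 1.35 ± 0.35 (SE), adjusted p = 0.035). DKO 2 was the highest library for each of them. Of 18 receptors, 2 fell. Ccr9, which brings lymphocytes to the small intestine, had 323, 207 and 276 CPM in DKO, against 600.0, 597 and 596 CPM in WT (log2 fold change -1.15 ± 0.21 (SE), adjusted p = 0.00195). Ccr2 had 76.2, 52.1 and 72.7 CPM in DKO, against 137, 125 and 149 CPM in WT (log2 fold change -1.03 ± 0.18 (SE), adjusted p = 0.00118). Of 16 integrins and adhesion genes, Itga1, Itga2 and Cd96 fell (-1.89 ± 0.40, adjusted p = 0.0066, -1.58 ± 0.41, adjusted p = 0.0359 and -0.66 ± 0.17, adjusted p = 0.0302). Cxcl1 lost the call without WT 2 or WT 3 (adjusted p up to 0.083). Cxcl2 lost the call without DKO 1, DKO 2, WT 1, WT 2 or WT 3 (adjusted p up to 0.292). Itga1 lost the call without DKO 2 (adjusted p = 0.065). Itga2 and Cd96 lost the call without any 1 of the 6 DN libraries (adjusted p up to 0.231).

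Type 1 and cytotoxic genes moved in both directions. Of 20, 2 rose and 5 fell (median log2 fold change -0.67). Klri2, a lectin-like receptor gene of NK cells, had 97.6, 86.4 and 60.7 CPM in DKO, against 2.85, 4.98 and 5.55 CPM in WT (log2 fold change 4.20 ± 0.36 (SE), adjusted p = 1.22e-07), and Klrk1, the gene of the activating receptor NKG2D, had 273, 269 and 253 CPM in DKO, against 99.2, 126 and 133 CPM in WT (log2 fold change 1.15 ± 0.21 (SE), adjusted p = 0.00213). Klrb1c, the gene of NK1.1, had 14.1, 13.8 and 14.1 CPM in DKO, against 38.5, 36.7 and 36.4 CPM in WT (log2 fold change -1.41 ± 0.17 (SE), adjusted p = 1.78e-05). Ctsw (-1.04 ± 0.16, adjusted p = 3.67e-04) and Srgn (-0.77 ± 0.17, adjusted p = 0.00883), both of cytotoxic granules, fell. Nkg7 (-1.21 ± 0.26, adjusted p = 0.00905) and Gzmc (-2.54 ± 0.63, adjusted p = 0.0253), named after their values were seen, fell too. Of 17 checkpoint and costimulatory receptors, Ctla4 and Lag3 fell. Ctla4 had 25.6, 17.2 and 16.7 CPM in DKO, against 74.6, 78.8 and 90.6 CPM in WT (log2 fold change -2.03 ± 0.37 (SE), adjusted p = 0.00166), and Lag3 had 8.64, 8.24 and 13.9 CPM in DKO, against 23.5, 21.9 and 25.6 CPM in WT (log2 fold change -1.20 ± 0.19 (SE), adjusted p = 2.94e-04). Both are receptors of T cells as well as of activated ILCs. In the MHC class II list, H2-DMa, a peptide loading chaperone, fell (-1.03 ± 0.20, adjusted p = 0.00341), 1 of 10. Srgn lost the call without DKO 1, DKO 2 or WT 2 (adjusted p up to 0.0751). Nkg7 lost the call without DKO 2 (adjusted p = 0.0967). Gzmc lost the call without DKO 2, DKO 3, WT 1 or WT 2 (adjusted p up to 0.168).

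**Figure D3:**
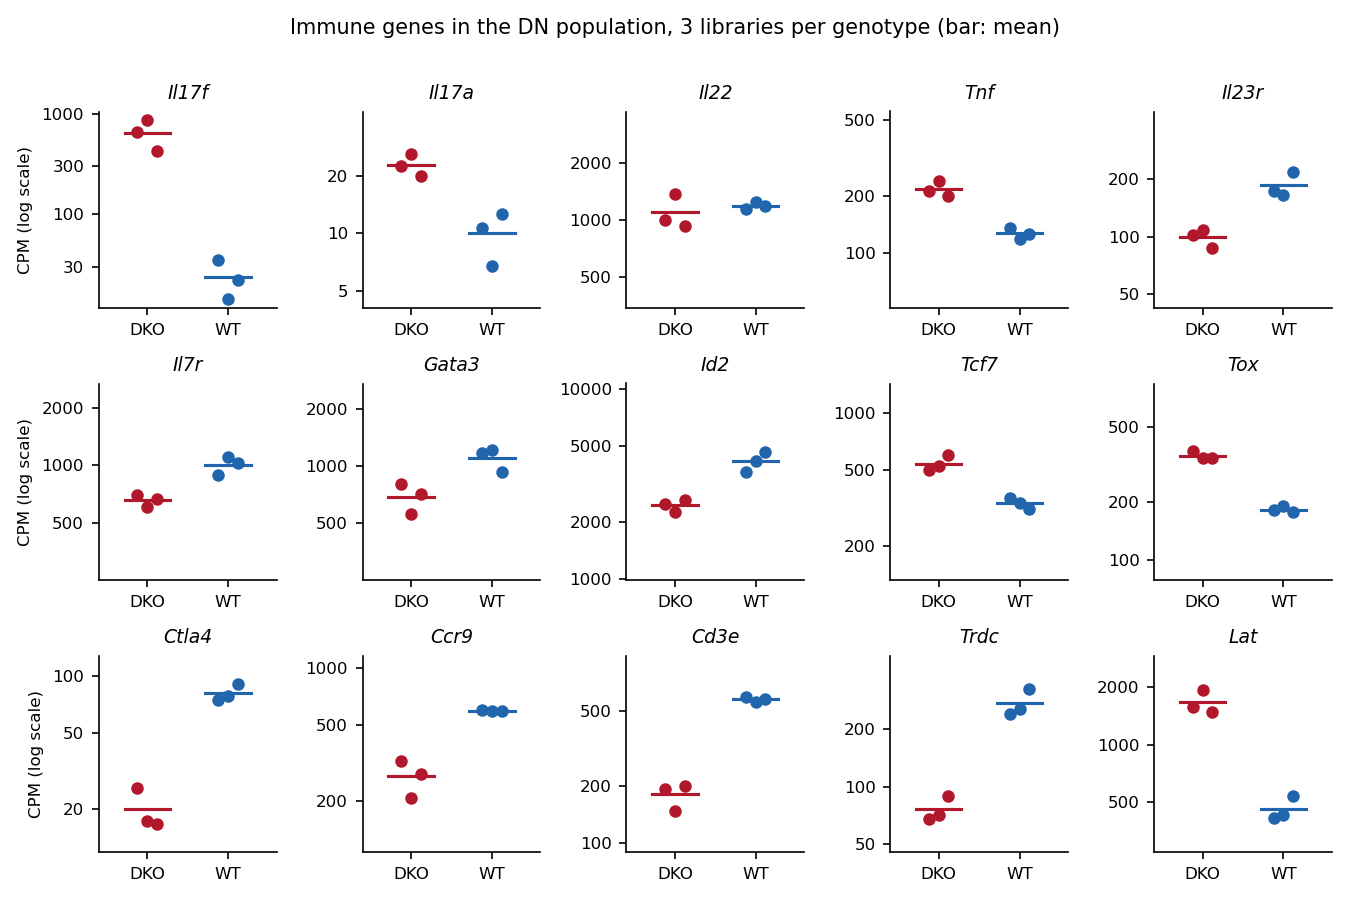
CPM (log scale, one axis per gene) of 15 immune genes in the 3 DKO and 3 WT libraries of the DN population; points are libraries and bars are group means. Il17f, Tnf, Tcf7, Tox and Lat sit higher in every DKO library, Il23r, Il7r, Gata3, Id2, Ctla4, Ccr9, Cd3e and Trdc sit lower, Il17a is separated without passing the test, and Il22 overlaps.

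Of 23 genes of glycolysis and lactate, 5 rose and 1 fell (26.1% called). The phosphofructokinases set the committed step of the pathway. Pfkp had 973, 1039.9 and 892 CPM in DKO, against 289.7, 340.5 and 370.0 CPM in WT (log2 fold change 1.54 ± 0.14 (SE), adjusted p = 2.66e-07), and Pfkl had 581, 538 and 536 CPM in DKO, against 244, 227 and 265 CPM in WT (log2 fold change 1.17 ± 0.17 (SE), adjusted p = 1.02e-04). The lower enzymes Eno1 (0.76 ± 0.16, adjusted p = 0.00755) and Pkm (0.74 ± 0.17, adjusted p = 0.0136) rose less, and both have processed pseudogenes that could share reads. Slc16a3, the lactate exporter, had 27.6, 34.1 and 28.6 CPM in DKO, against 11.8, 9.98 and 8.38 CPM in WT (log2 fold change 1.58 ± 0.26 (SE), adjusted p = 5.54e-04). Slc2a3, a glucose transporter named after its values were seen, fell (-0.94 ± 0.22, adjusted p = 0.0159). None of 26 oxidative phosphorylation genes was called by edgeR, DESeq2 or limma voom (4 at an unadjusted p under 0.05, median log2 fold change 0.10), while 1 was called without WT ILC1 2. Eno1 lost the call without WT 2 (adjusted p = 0.0789). Pkm lost the call without DKO 1, DKO 2, WT 1, WT 2 or WT 3 (adjusted p up to 0.124). Slc2a3 lost the call without DKO 2, DKO 3, WT 1, WT 2 or WT 3 (adjusted p up to 0.15).

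In lipid metabolism 3 of 30 genes rose (10.0%). Lpl, the lipase that frees fatty acids from lipoproteins, had 83.5, 81.4 and 83.9 CPM in the DKO libraries, against 0.111, 0.245 and 0.335 CPM in the WT libraries (log2 fold change 8.50 ± 0.56 (SE), adjusted p = 2.87e-09). Plin2, which coats lipid droplets, had 319.8, 264 and 218 CPM in DKO, against 98.2, 89.9 and 116 CPM in WT (log2 fold change 1.40 ± 0.23 (SE), adjusted p = 6.57e-04). Acadvl, the first enzyme of long-chain fatty acid oxidation, rose by 0.55 ± 0.13. Acadvl lost the call without any 1 of the 6 DN libraries (adjusted p up to 0.177). None of 20 cholesterol synthesis genes was called by edgeR (2 at an unadjusted p under 0.05), while DESeq2 called 1, limma voom 2 and edgeR without WT ILC1 2 called 2. In arginine metabolism, Ass1, which makes argininosuccinate from citrulline, had 442, 563 and 522 CPM in DKO, against 14.4, 13.9 and 12.5 CPM in WT (log2 fold change 5.23 ± 0.53 (SE), adjusted p = 1.23e-06), 1 of 12 tested. In glutathione and redox metabolism Gstm5 fell (above) and Gstt2 rose (0.74 ± 0.16, adjusted p = 0.00784), of 19 tested. Gstt2 lost the call without DKO 3 or WT 2 (adjusted p up to 0.0834). None of 15 heme genes was called by edgeR, DESeq2 or limma voom (1 at an unadjusted p under 0.05). Of 20 tested genes of mitochondrial biogenesis and mitophagy, Bnip3, a mitophagy receptor, fell (-0.98 ± 0.25, adjusted p = 0.0342). Bnip3 lost the call without any 1 of the 6 DN libraries (adjusted p up to 0.285).

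In the BCL2 family, NF-κB and nuclear receptor lists, the few called members mostly fell. Median log2 fold changes of these lists were 0.0009, -0.17 and -0.18. The near-identical Bcl2a1 paralogues fell, Bcl2a1a, Bcl2a1b and Bcl2a1d (-2.08, -2.17 and -1.64), the only called members of 16 BCL2 family genes by edgeR. Their copies share reads, so the values per copy are uncertain. Of 16 NF-κB subunits and targets, Birc3 fell (-0.56 ± 0.15, adjusted p = 0.0459). Of 20 tested nuclear receptors, Thra rose (above), and Nr3c1, the glucocorticoid receptor, fell, with 114, 94.6 and 95.8 CPM in DKO, against 248, 208 and 192 CPM in WT (log2 fold change -1.09 ± 0.18 (SE), adjusted p = 4.93e-04). Vdr, the vitamin D receptor, was low and fell (-1.98 ± 0.48, adjusted p = 0.0197). Bcl2a1a lost the call without DKO 2 (adjusted p = 0.0507). Birc3 lost the call without any 1 of the 6 DN libraries (adjusted p up to 0.265). Vdr lost the call without DKO 2, DKO 3, WT 1 or WT 3 (adjusted p up to 0.17).

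Genes that sense metabolites and neuropeptides moved in both directions, and of 17 tested 1 rose and 4 fell. Ramp1, a partner chain of the receptor for the neuropeptide CGRP, had 257, 275 and 258 CPM in DKO, against 65.4, 51.7 and 53.6 CPM in WT (log2 fold change 2.21 ± 0.24 (SE), adjusted p = 2.37e-06). Ramp3, which pairs the same receptor core with adrenomedullin, had 48.7, 59.2 and 53.8 CPM in DKO, against 142, 175 and 187 CPM in WT (log2 fold change -1.64 ± 0.36 (SE), adjusted p = 0.00916). Ramp1 was thus higher and Ramp3 lower in DKO, beside the fall of the ligand gene Adm above. Ffar2, which senses short-chain fatty acids such as acetate (-0.77 ± 0.14, adjusted p = 0.00236), and Gpr65, a proton sensor (-0.71 ± 0.15, adjusted p = 0.00744), fell. Ramp3 lost the call without DKO 1 (adjusted p = 0.0606). Gpr65 lost the call without DKO 2 or WT 2 (adjusted p up to 0.0901). Adm lost the call without DKO 2, DKO 3 or WT 1 (adjusted p up to 0.113).

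Of 23 interferon-stimulated genes, Oasl2 rose (1.79 ± 0.20, adjusted p = 4.76e-06), and Isg20 (-1.07 ± 0.22, adjusted p = 0.00631) and Oas3 (-1.13 ± 0.29, adjusted p = 0.0367) fell. Of 26 proliferation genes Cdk6 rose (1.01 ± 0.22, adjusted p = 0.00897). Of 19 stress and immediate early genes, which dissociation can induce, Fosb rose, with 2139, 1808 and 1422 CPM in DKO, against 853, 1091 and 728 CPM in WT (log2 fold change 1.01 ± 0.20 (SE), adjusted p = 0.00431). None of 25 ribosomal protein genes and none of 15 TGF-β, SMAD and SKI genes was called by edgeR, DESeq2 or limma voom (2 and 3 at an unadjusted p under 0.05). Isg20 lost the call without DKO 3 (adjusted p = 0.0555). Oas3 lost the call without any 1 of the 6 DN libraries (adjusted p up to 0.182). Cdk6 lost the call without WT 3 (adjusted p = 0.0667). Lists other than the clock activators are given here by counts of called members, beside the 2.83% of all tested genes, and no list was tested as a set.

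**Figure D4:**
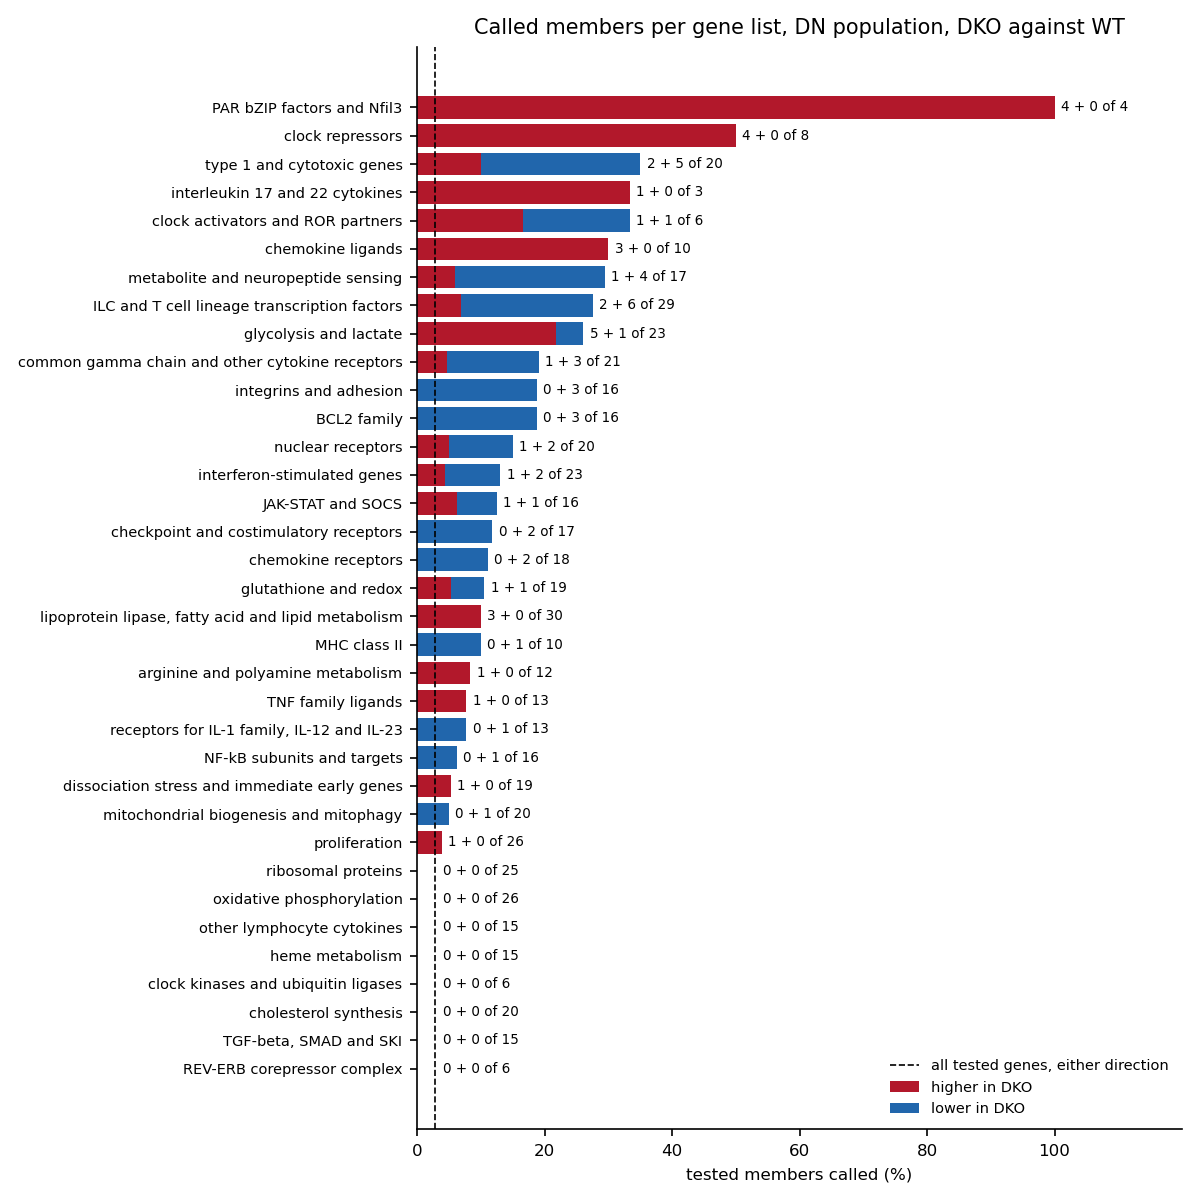
Share of tested members called in DKO against WT, in percent, for each of the 35 gene lists; red is higher and blue lower in DKO, the text gives higher plus lower of tested members, and the dashed line is 2.83%, the share of all tested genes. The list of PAR bZIP factors and Nfil3 (4 of 4) and that of clock repressors (4 of 8) head the plot, and 8 lists hold no called gene.

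The effect of DKO in the DN population was then set beside that in CCR6, NKp46 and ILC1 libraries, which share no library with it. Whether same-numbered libraries of different populations came from the same animals is not given, and the fit did not pair them. By edgeR, DKO changed 846 genes in CCR6 (3.97%; 1.93% higher, 2.04% lower), 885 in NKp46 (4.16%; 1.99% higher, 2.17% lower) and 225 in ILC1 (1.06%; 0.78% higher, 0.277% lower). Of the 317 genes that rose in DN, 205 were also called higher in CCR6, 161 in NKp46 and 80 in ILC1, and 59 in all 4. Of the 285 genes that fell in DN, 150 were also called lower in CCR6, 138 in NKp46 and 29 in ILC1, and 21 in all 4. A call in DN alone held for 72 higher and 81 lower genes. The difference from the mean effect of the other 3 populations was itself called for 0 of those 72 and 3 of those 81. Over all tested genes, the DKO effect in DN differed from that in CCR6 for 27 genes (0.127%; 0.0376% with DN above, 0.0893% below). It differed from that in NKp46 for 106 genes (0.498%; 0.146% above, 0.352% below) and from the mean of the other 3 for 20 genes (0.094%; 0.047% each way). Without WT ILC1 2 these counts were 68, 319 and 99, and without 1 DN library at a time they were 7 to 14, 19 to 89 and 8 to 16.

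Some genes rose in DN, CCR6 and NKp46 and were not called in ILC1. Bhlhe41 had fitted log2 fold changes of 8.60 in DN, 8.57 in CCR6, 6.07 in NKp46 and 0.11 in ILC1 (difference 3.68 ± 0.56, adjusted p = 0.00582 for DN minus the mean of the other 3). Slc41a3, a magnesium transporter, had 2.74 in DN, 1.93 in CCR6, 1.70 in NKp46 and -0.41 in ILC1 (difference 1.67 ± 0.24, adjusted p = 0.00337). Zfp618 had 11.10 in DN, 7.08 in CCR6, 7.76 in NKp46 and 1.48 in ILC1 (difference 5.66 ± 0.87, adjusted p = 0.00627), values that depend on the prior count because of its 3 WT counts. These differences stayed called without each DN library. Klri2 followed the same order, with 4.20 in DN, 3.36 in CCR6, 2.02 in NKp46 and 0.84 in ILC1 (difference 2.12 ± 0.38, adjusted p = 0.0226); its difference was lost without any 1 DN library other than DKO 3 (adjusted p up to 0.192). Lpl rose in all 4, with 8.50 in DN, 5.49 in CCR6, 7.74 in NKp46 and 2.86 in ILC1 (difference 3.13 ± 0.56, adjusted p = 0.0226), and its difference was lost without any 1 of the 6.

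Other genes moved elsewhere and not, or in the opposite direction, in DN, or fell in DN without such a fall elsewhere. Hes1, a target of NOTCH, had 167, 155 and 206 CPM in DKO, against 265, 339.9 and 178 CPM in WT in the DN population (log2 fold change -0.57 ± 0.28 (SE), adjusted p = 0.424), where the groups overlapped. It rose elsewhere, with 1.79 in CCR6, 1.93 in NKp46 and 2.94 in ILC1 (difference -2.79 ± 0.33, adjusted p = 5.12e-04), and the difference stayed called without each DN library. Socs2 fell in DN (-0.72) and rose in CCR6 (1.31; difference -2.03 ± 0.24, adjusted p = 2.18e-04 for DN minus CCR6). Cd7, an immunoglobulin family receptor, had -0.25 in DN and fell in CCR6 (-2.79; difference 2.54 ± 0.23, adjusted p = 4.93e-06). Both differences stayed called without each DN library. Over CCR6, NKp46 and ILC1 together, the mean effect on Socs2 was 0.35, lower than in CCR6 alone. Socs2 lost the call without DKO 1, DKO 2, WT 2 or WT 3 (adjusted p up to 0.126). Cd2, an adhesion receptor of T and NK cells, had -1.20 in DN and rose in NKp46 (2.36; difference -3.55 ± 0.56, adjusted p = 0.00745 for DN minus NKp46). Ccr2 fell in DN and had 0.36 in CCR6, 0.29 in NKp46 and -0.03 in ILC1 (difference -1.24 ± 0.21, adjusted p = 0.0113). That difference was lost without DKO 2, WT 1 or WT 3 (adjusted p up to 0.14). T cell marker sums averaged 4538 CPM in DKO and 2238 CPM in WT CCR6 libraries, and 3380.0 CPM in DKO and 2978 CPM in WT NKp46 libraries. Their direction was thus opposite to that in DN. These sums include Lat and do not measure T cell content. Cd3e averages, given above, were nearly equal in DKO and WT CCR6 libraries and higher in DKO than in WT NKp46 libraries. The part of T cell transcripts in these differences was not tested.

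**Figure D5:**
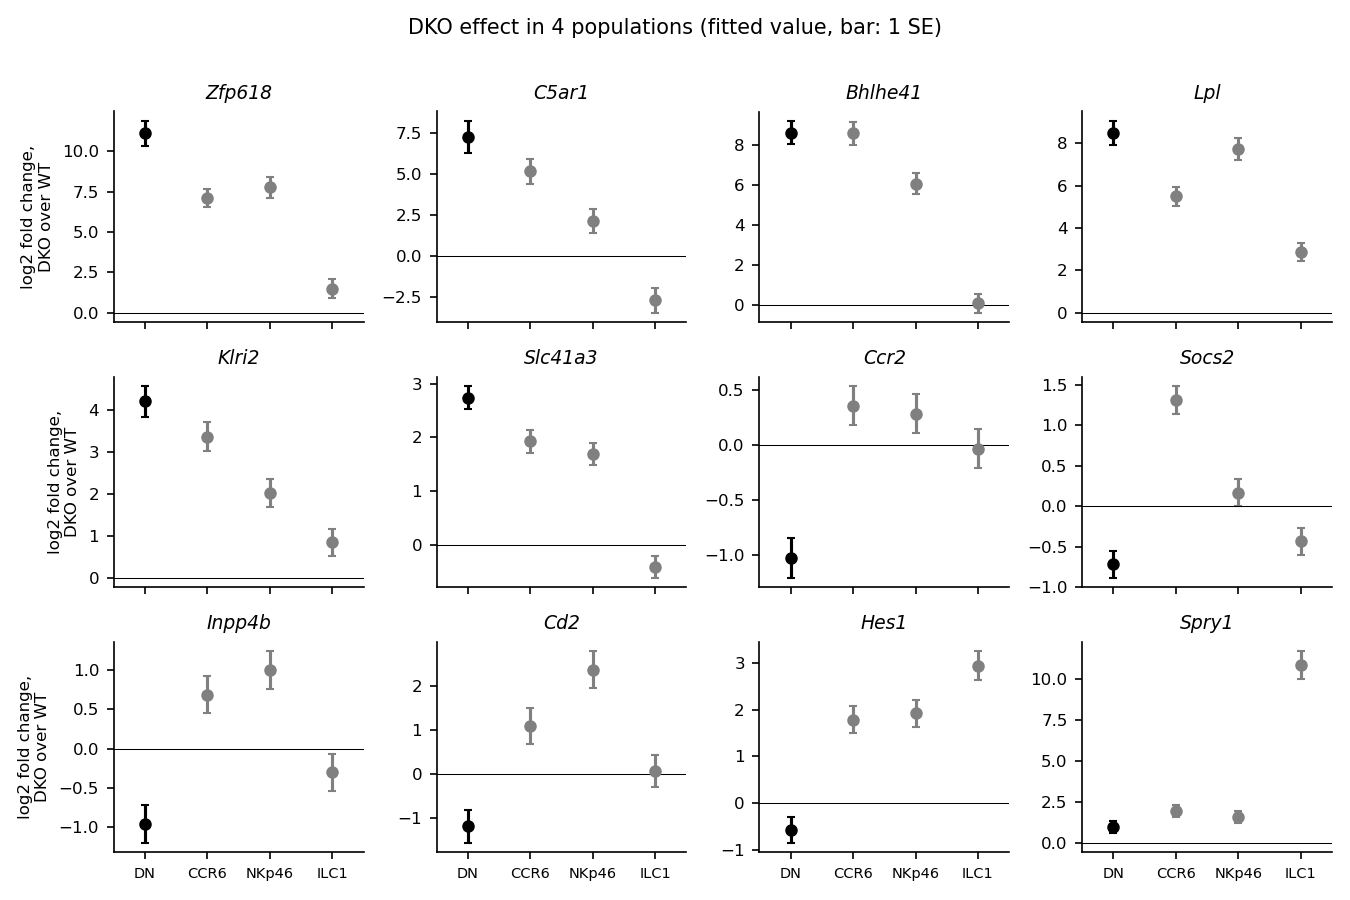
Fitted log2 fold change of DKO over WT, with 1 SE, in DN (black) and in CCR6, NKp46 and ILC1 (grey) for the 12 genes named for a difference from the mean of the other 3; each gene has its own axis. Zfp618, C5ar1, Bhlhe41, Lpl, Klri2 and Slc41a3 have their highest value in DN (Bhlhe41 level with CCR6), the other 6 their lowest, and the Spry1 value in ILC1 rests on 0 WT counts and depends on the prior count.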

How the data were processed

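RNA-seq libraries from sorted cells of the small intestine lamina propria were compared, 3 DKO and 3 WT of the DN population among 24 libraries in 8 groups. The deposited table holds read counts per Ensembl gene and library, with no normalization. Per the submitters' processing notes the build was mm10, with STAR 2.7.9a, featureCounts 2.0.3 of the Subread package, Salmon 1.5.2, bcl2fastq, and DESeq2 under R 4.1 among the tools; which made these counts, and whether strand was used, is not given in the sources used here. RNA integrity scores were above 8, per the labels' protocols. Of 55774 rows, 168 IDs stood on 455 rows with identical counts; 1 copy was kept, leaving 55487 genes, of which 55141 were placed in GENCODE M21 (GRCm38). Both strands can contribute to a gene's count, and copies of a gene can share reads.

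All 24 libraries were fitted in edgeR 4.0.16 (R 4.3.3) with trimmed-mean factors, filterByExpr, 1 mean per group and robust quasi-likelihood tests (16 residual degrees of freedom, common biological coefficient of variation 0.573). P-values were adjusted by Benjamini and Hochberg over 21286 genes and called under 0.05. SE is the log2 fold change over the root of F. Differences of effect are contrasts in the same fit. Alternatives used DESeq2 1.42.0 and limma 3.58.1. The fit was also run on simulated data, with an outcome not reported here. That run set no changes in genes of the lowest counts and did not cover the differences of effect. Tables and counting intervals were made in Python 3.11.15 with pandas 2.3.3 and SciPy 1.17.1. Folds against 0 WT counts use a floor of 3 counts over the group; ratios over 1 to 3 counts have 95% exact intervals.

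Genes named are Nr1d1, Nr1d2, Thra, Vav1 and markers; up to 15 called genes each way by log2 fold change (no overlap of libraries, at least 5 CPM in the higher group), 8 each way by adjusted p and 8 by difference of CPM; up to 5 members of each of 35 lists and all members of the clock and interleukin 17 and 22 lists; and up to 6 each way per difference of effect. The rankings by size skip sex-linked genes, segments of antigen receptors and predicted genes. Members and lists were chosen with earlier results of these data known. Promoter sequences are from RefSeq (GRCm38.p6). Some genes taken by these rules are not reported here.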

Additional observations from a re-analysis of the deposited data

Results flagged for a closer look

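A difference between the DKO effect in the DN population and that elsewhere drew attention to the genes below, each called by edgeR's test of the difference itself (adjusted p under 0.05). Values are differences of log2 fold changes (± SE), so a positive value means that the DKO effect was higher in DN.

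Against CCR6, the effect was higher in DN for Cd7 (2.54 ± 0.23), Ifi204 (2.07 ± 0.37), Tm9sf2 (1.45 ± 0.23), St3gal6 (1.35 ± 0.27), Chad (1.11 ± 0.21) and Fam184b (0.95 ± 0.18). It was lower in DN for Cd27 (-3.90 ± 0.73), Art2b (-3.60 ± 0.59), Hes1 (-2.35 ± 0.40), Socs2 (-2.03 ± 0.24), Bcl11b (-1.99 ± 0.39) and Add3 (-1.88 ± 0.27). Of these 12 differences, those of Cd7, Tm9sf2, Socs2 and Add3 stayed called without each DN library, and the other 8 reached adjusted p-values of up to 0.226. Cd27, a costimulatory receptor, had a log2 fold change of -0.68 in DN and 3.23 in CCR6. Bcl11b had -0.98 in DN and 1.01 in CCR6.

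Against NKp46, the effect was higher in DN for Ociad2 (8.62 ± 1.75), Pros1 (5.34 ± 1.18), Klri2 (2.18 ± 0.46), Cd200r2 (2.14 ± 0.47), Tacc2 (2.10 ± 0.35) and Bicd1 (1.93 ± 0.25). It was lower in DN for Nckap5 (-4.74 ± 0.78), Samd3 (-4.25 ± 0.73), Zfp683 (-4.15 ± 0.88), Il4 (-3.72 ± 0.83), Cd2 (-3.55 ± 0.56) and Cd27 (-3.28 ± 0.71). Differences of Tacc2, Bicd1, Nckap5, Samd3 and Cd2 stayed called without each DN library, and the other 7 reached adjusted p-values of up to 0.163. Ociad2 had 0 counts in every DKO NKp46 library, so its fitted value depends on the prior count and is no bound. In the comparison of DKO and WT within DN, Cd200r2 lost the call without WT 1 (adjusted p = 0.0606). Bicd1 lost the call without DKO 2, WT 1 or WT 3 (adjusted p up to 0.108). Zfp683, which encodes HOBIT, a factor of tissue-resident lymphocytes, had -3.09 in DN and 1.06 in NKp46.

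Against the mean of the other 3 populations, the effect was higher in DN for C5ar1 (5.71 ± 1.03), Zfp618 (5.66 ± 0.87), Bhlhe41 (3.68 ± 0.56), Lpl (3.13 ± 0.56), Klri2 (2.12 ± 0.38) and Slc41a3 (1.67 ± 0.24). It was lower in DN for Spry1 (-3.84 ± 0.58), Hes1 (-2.79 ± 0.33), Cd2 (-2.36 ± 0.44), Inpp4b (-1.42 ± 0.28), Ccr2 (-1.24 ± 0.21) and Socs2 (-1.06 ± 0.19). Differences of Zfp618, Bhlhe41, Slc41a3, Hes1 and Spry1 stayed called without each DN library, and the other 7 reached adjusted p-values of up to 0.295. Within DN, Inpp4b lost the call without DKO 1, DKO 2, WT 1 or WT 2 (adjusted p up to 0.191). Spry1 had 0 counts in every WT ILC1 library, so its value depends on the prior count and is no bound.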

How the results depend on the processing

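The DN count of 602 called genes was 619 with DESeq2 size factors in edgeR, 602 with upper-quartile factors, 664 without the low-count filter and 597 with repeated rows summed. It was 1033 with DESeq2, 1076 with limma voom, 1330 with the DN libraries fitted alone and 918 without WT ILC1 2. Without 1 DN library at a time it ran from 357 (without DKO 2) to 416. The median log2 fold change over all genes lay between -0.07 and 0 in every setting run.

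Differences from CCR6, 27 as reported, were 165 with DESeq2, 71 with limma voom, 62 without the filter, 166 with only the libraries concerned and 68 without WT ILC1 2, and 7 to 14 without 1 DN library at a time. Differences from NKp46, 106 as reported, were 469 with DESeq2, 409 with only the libraries concerned, 66 with upper-quartile factors, 319 without WT ILC1 2 and 191 with the replicate block, and 19 to 89 without 1 DN library at a time. Differences from the mean of the other 3, 20 as reported, were 189 with DESeq2, 63 with limma voom, 41 without the filter and 99 without WT ILC1 2, and 8 to 16 without 1 DN library at a time. The causes were not tested. Fewer samples remain when a library is left out, and the counts were higher without WT ILC1 2 and lower without a DN library.

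Same-numbered DKO and WT DN libraries had correlations of deviations of 0.051, 0.007 and 0.037, all under 0.1. Same-numbered WT DN and WT CCR6 libraries had 0.045, 0.040 and 0.042, where every pair of unlike number was negative. Same-numbered DKO DN and DKO ILC1 libraries had 0.005, -0.003 and 0.037. Labels do not say whether a shared number marks a shared animal or batch, and these values do not settle it. With the number as a block, the DN count was 672. Between the genotypes and WT 2 apart, each DN library correlated best with its own number. Whether this reflects shared animals or batches was not tested.

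Of the 157 called genes taken for naming, 58 lost the call without at least 1 DN library and 13 without each of the 6, with adjusted p up to 0.292. Without the filter 23 lost it, and with the block, summed rows or upper-quartile factors 2 each. None lost it with DESeq2, limma voom, DESeq2 size factors, the DN libraries alone or without WT ILC1 2, and none changed sign in any setting. Without DKO 1, Jak3 and Smad3 were called, and without WT 1, Top2a. Without WT ILC1 2, counted after the data were seen, called members were 5 of the nuclear receptors, 4 of the chemokine receptors, 3 of the NF-κB list, 1 of the oxidative phosphorylation list and 2 each of the IL-1, IL-12 and IL-23 receptors, MHC class II, cholesterol, mitophagy, arginine and stress lists. Few libraries and low counts in 1 group limit the precision, most of all for genes near 0 in WT.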

Other observations

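Genes of ketone body and branched-chain amino acid breakdown rose beside Acat1. These were picked after their values were seen and no count over a list stands behind them. Oxct1, which activates acetoacetate in mitochondria, had 185, 183 and 141 CPM in DKO, against 91.4, 85.5 and 78 CPM in WT (log2 fold change 1.00 ± 0.18 (SE), adjusted p = 0.00201). Dbt, the transacylase of the branched-chain keto acid dehydrogenase, had 27.2, 29.6 and 22.2 CPM in DKO, against 14.8, 15.5 and 15 CPM in WT (log2 fold change 0.81 ± 0.19 (SE), adjusted p = 0.0154). Ivd, isovaleryl-CoA dehydrogenase, had 138, 129 and 132 CPM in DKO, against 84.3, 95.5 and 102 CPM in WT (log2 fold change 0.51 ± 0.13 (SE), adjusted p = 0.0337). Dbt lost the call without DKO 1, DKO 2, WT 1, WT 2 or WT 3 (adjusted p up to 0.131). Ivd lost the call without any 1 of the 6 DN libraries (adjusted p up to 0.268).

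Extracellular proteases and their inhibitors, chosen in the same way, moved in both directions beside Mmp9 and Timp3. Adam8, a membrane metalloprotease of leukocytes, had 161, 128 and 93.2 CPM in DKO, against 24.6, 39.3 and 35.5 CPM in WT (log2 fold change 1.94 ± 0.27 (SE), adjusted p = 1.04e-04). Mmp25, a membrane-anchored metalloproteinase, had 18.9, 20.7 and 13.4 CPM in DKO, against 79.8, 75.9 and 79.2 CPM in WT (log2 fold change -2.15 ± 0.33 (SE), adjusted p = 2.96e-04), and Mmp23 had 1.56, 1.94 and 1.84 CPM in DKO, against 13.3, 9.39 and 16.3 CPM in WT (log2 fold change -2.87 ± 0.38 (SE), adjusted p = 4.47e-05). Timp2, a relative of Timp3, had 7.58, 4.68 and 7.55 CPM in DKO, against 21.8, 15.8 and 27.5 CPM in WT (log2 fold change -1.71 ± 0.36 (SE), adjusted p = 0.00664). Timp3 and Timp2 thus ran in opposite directions in DKO, as did Mmp9 and Mmp25. Timp2 lost the call without DKO 2 (adjusted p = 0.0616).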
